A study of Mus musculus with 14 samples.

Results

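The m6A writer complex is the nuclear enzyme that places N6-methyladenosine (m6A) on mRNA. METTL3 carries the catalytic site, METTL14 pairs with it and helps hold the substrate RNA, and WTAP anchors this pair to further subunits. RBM15 and RBM15B bind RNA and recruit the complex, ZC3H13 helps to keep it in the nucleus, and CBLL1, also called Hakai, is a RING finger protein first described as an E3 ubiquitin ligase. The mark is read by YTH domain proteins, and in mouse embryonic stem cells (mESCs) it is known for shortening the lifetime of many transcripts. The 7 genes that encode these subunits, Mettl3, Mettl14, Wtap, Rbm15, Rbm15b, Zc3h13 and Cbll1, were chosen by name out of 52459 genes in the count tables. All 7 had a mean FPKM (counts scaled by exon length and library total) of at least 1 over both genotypes at 0 h, as did 11869 genes in all.

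Both genotypes were E14Tg2a mESCs grown on gelatin in serum and LIF. WT cells carried no edit, and R255K cells carried a CRISPR-Cas9 knock-in for the R255K change of METTL14, which replaces an arginine by lysine, and were grown from single colonies. Each genotype was sampled at 0, 4 and 8 h in 5 µg/ml actinomycin D, which stops transcription, with 1 polyA RNA library at each time. Each genotype also had 2 m6A immunoprecipitation (IP) and 2 input libraries, behind which stands 1 deposited peak list. With 1 library for each genotype and time there is no replicate spread and no test. Intervals are 95% intervals of the counts and cover counting error only, and the background is the share of all tested genes past the same 1.5-fold threshold. The time course held between 13812160 and 18813640 counts per library.

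The edited codon lies in exon 9 of 11 of Mettl14, on the minus strand of chromosome 3 at chr3:123372647-123372649 (mm10). The reference sequence of the exon around it (chr3:123372617-123372673) is printed to place the residue that distinguishes the genotypes, with the codon in capitals.
Mettl14 edited codon: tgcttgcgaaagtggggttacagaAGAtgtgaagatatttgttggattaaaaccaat

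The complex's own transcripts carried m6A peaks. Sequence around the summit of each gene's strongest WT peak in coding sequence is printed to show where the enrichment lay. On Wtap this peak had a fold enrichment of 7.72, below the 9.71 and 8.36 of its WT peaks outside coding sequence. The windows have 201 bases, are read from the mm10 reference on the transcript strand, and have every GGAC, the most common core of the m6A consensus, in capitals. The windows are chr14:75331892-75332092 in Zc3h13, chr9:106885261-106885461 in Rbm15b, chr3:107331120-107331320 in Rbm15, chr17:12967677-12967877 in Wtap and chr12:31487341-31487541 in Cbll1.
Zc3h13 exon 15: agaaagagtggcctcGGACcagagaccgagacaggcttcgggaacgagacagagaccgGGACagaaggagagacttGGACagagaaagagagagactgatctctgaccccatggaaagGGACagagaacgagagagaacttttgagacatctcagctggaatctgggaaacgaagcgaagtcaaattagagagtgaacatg
Rbm15b exon 1: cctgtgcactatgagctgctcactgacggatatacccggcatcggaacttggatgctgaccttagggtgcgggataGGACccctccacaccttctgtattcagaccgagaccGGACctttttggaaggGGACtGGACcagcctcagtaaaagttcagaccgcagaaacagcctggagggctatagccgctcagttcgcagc
Rbm15 exon 1: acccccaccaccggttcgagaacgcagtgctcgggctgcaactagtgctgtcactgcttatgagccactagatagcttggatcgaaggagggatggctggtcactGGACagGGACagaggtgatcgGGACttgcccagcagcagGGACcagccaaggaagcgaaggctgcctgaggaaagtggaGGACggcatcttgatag
Wtap exon 8: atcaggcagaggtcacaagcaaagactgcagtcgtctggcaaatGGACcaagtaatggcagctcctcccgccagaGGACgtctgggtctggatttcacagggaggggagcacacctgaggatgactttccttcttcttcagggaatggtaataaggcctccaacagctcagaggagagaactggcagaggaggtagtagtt
Cbll1 exon 6: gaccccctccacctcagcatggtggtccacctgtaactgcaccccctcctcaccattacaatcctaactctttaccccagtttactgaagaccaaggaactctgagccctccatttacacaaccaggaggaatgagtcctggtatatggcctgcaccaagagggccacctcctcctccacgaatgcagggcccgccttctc
GGAC stood 5 times in the Rbm15 window, 4 times in the Zc3h13 and Rbm15b windows, 2 times in the Wtap window and not at all in the Cbll1 window.

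Transcripts of 5 of the 7 genes, Wtap, Rbm15, Rbm15b, Zc3h13 and Cbll1, fell far less under actinomycin D in the R255K line than in WT. After 8 h between 4.63% and 18.4% of their starting FPKM was left in WT and between 19.6% and 58.5% in R255K cells. Mettl3 and Mettl14, the catalytic pair, were the slowest of the 7 in WT cells, with 32.7% and 43.0% left, and differed less between genotypes. At 0 h the outstanding value was that of Mettl14, whose FPKM in R255K cells was 0.489 of that in WT cells.

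**Figure D1:**
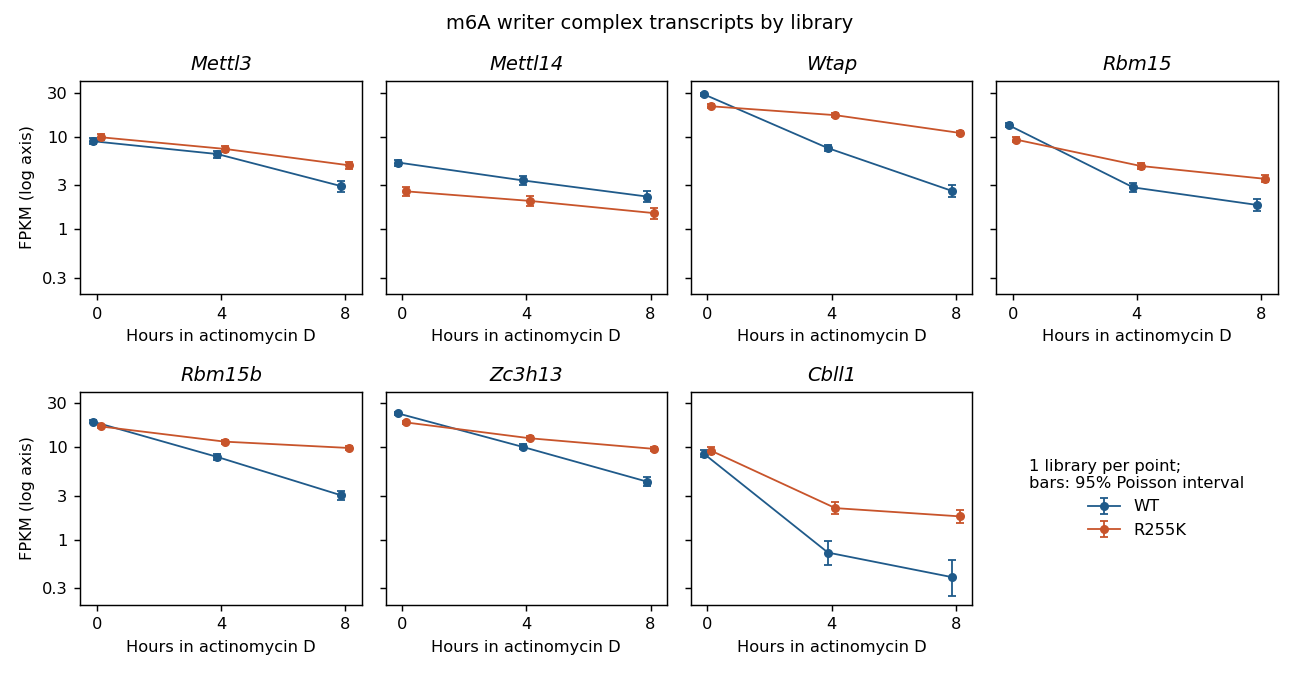
FPKM (log axis) of each of the 7 genes at 0, 4 and 8 h of actinomycin D in WT (blue) and R255K (orange) cells, 1 library per point, with bars for the 95% Poisson interval of the count. Lines of the genotypes cross between 0 and 4 h for Wtap, Rbm15, Rbm15b and Zc3h13, and Mettl14 is lower in R255K at every time.

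Mettl3, the catalytic subunit, had an FPKM of 8.95, 6.51 and 2.92 in WT cells and of 9.89, 7.40 and 4.92 in R255K cells at 0, 4 and 8 h, from counts of 819, 512 and 212 and of 812, 722 and 486. The genotypes were close at 0 and 4 h and apart at 8 h. The R255K to WT ratio was 1.10 at 0 h (1.00 to 1.22), 1.14 at 4 h (1.01 to 1.27) and 1.68 at 8 h (1.43 to 1.99). The ratio of the 8 h to 0 h values was 1.52 times higher in R255K cells (1.26 to 1.84), just past the threshold, against a median of 1.33 over all tested genes. It was between 1.08 and 2.19 under 5 other scalings and stayed past 1.5 in 1 of them. Of the 5249 exon bases of Mettl3 in the count table, 1106 are also exons of Tox4 on the opposite strand, which had counts of 1721, 1088 and 437 in WT and of 1820, 1655 and 1284 in R255K cells. The library kit does not mark strand, so reads of the shared bases cannot be told apart, and their part in the Mettl3 values was not tested.

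Mettl14, the METTL3 partner and the edited gene, had an FPKM of 5.27, 3.38 and 2.26 in WT cells and of 2.58, 2.03 and 1.497 in R255K cells, from counts of 681, 376 and 232 and of 299, 280 and 209. It was the least abundant of the 7 transcripts in both genotypes at 0 h, and every R255K value was below the WT value of the same time. The R255K to WT ratio was 0.489 at 0 h (0.426 to 0.561), 0.600 at 4 h (0.512 to 0.702) and 0.661 at 8 h (0.546 to 0.801). Mettl14 was the 1 member at least 1.5-fold lower at 0 h, where 19.3% of all tested genes were, and none was 1.5-fold higher, against a share of 20.6%. The ratio at 0 h moved with GC content across the whole table, from a median of 0.635 over the 1327 tested genes with under 42% GC to 1.23 over the 3316 with at least 54%. The exons of Mettl14 have 41.8% GC, and with the GC trend removed its ratio at 0 h was 0.749, no longer past the threshold. It stayed below 1 under all 5 other scalings at each time, between 0.439 and 0.749 at 0 h, 0.497 and 0.691 at 4 h, and 0.435 and 0.852 at 8 h.

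The 8 h to 0 h ratio of Mettl14 was 1.35 times higher in R255K cells (1.07 to 1.70). This is close to the median of all tested genes, but below the median of 2.45 over those with under 42% GC. The value was 0.961 with median-of-ratios size factors and 0.852 with the GC trend removed. Half-lives were computed from FPKM, so they are relative to the library total and are not absolute lifetimes. Over the 5062 tested genes without an exonic WT peak, the median FPKM left at 8 h in WT was 120% of 0 h. The half-life of Mettl14 was 6.41 h in WT cells (5.39 to 7.92) and 10.9 h in R255K cells (7.62 to 18.9). Their ratio of 1.70 (1.06 to 2.70) turned to 0.596 with the GC trend removed, so its direction rests on the scaling.

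The pair can also be compared within each library, which no scaling of whole libraries changes. The FPKM of Mettl3 was 1.70 times that of Mettl14 in WT cells at 0 h (1.53 to 1.88), 1.92 times at 4 h (1.68 to 2.205) and 1.29 times at 8 h (1.07 to 1.56). In R255K cells it was 3.84 times at 0 h (3.36 to 4.40), 3.64 times at 4 h (3.17 to 4.20) and 3.29 times at 8 h (2.79 to 3.88). The R255K intervals lay above the WT intervals at all 3 times. The quotient of the genotypes was 2.26, 1.89 and 2.54 at 0, 4 and 8 h and does not depend on the lengths used, whereas the ratio within a library does. Without length it was 1.20 and 2.72 at 0 h in WT and R255K cells. Reads of the exon bases that Mettl3 shares with Tox4 also enter these ratios and quotients, and their part was not tested. The comparison is not free of the GC trend, as the exons of Mettl3 have 46.4% GC and those of Mettl14 41.8%. With that trend removed the R255K to WT ratio of Mettl3 was 1.27, 1.13 and 1.74 at 0, 4 and 8 h. That of Mettl14 was 0.749, 0.570 and 0.638.

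Wtap, the adaptor, was the most abundant member at 0 h in both genotypes. Its FPKM was 28.8, 7.55 and 2.60 in WT and 21.3, 17.1 and 11.0 in R255K cells, from counts of 2837, 639 and 203 and of 1887, 1799 and 1171. The WT level dropped steeply in the first 4 h, while the R255K level stayed near its start and then declined. The R255K to WT ratio went from 0.741 at 0 h (0.699 to 0.786) to 2.27 at 4 h (2.07 to 2.49) and 4.23 at 8 h (3.65 to 4.94). With the GC trend removed the ratio at 0 h was 1.14, on the other side of 1. At 8 h 9.03% of the starting FPKM was left in WT cells (7.79 to 10.4) and 51.6% in R255K cells (47.9 to 55.5), a 5.71-fold difference (4.87 to 6.71) that was higher than that of 94.2% of all tested genes. Under 5 other scalings this difference was between 3.57-fold and 8.20-fold. The half-life was 2.18 h in WT (2.09 to 2.29) and 10.1 h in R255K cells (8.68 to 11.9). Their ratio of 4.61 (3.91 to 5.43) became 2.37 with the GC trend removed.

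Rbm15 and Rbm15b encode related RNA-binding subunits. Rbm15 had an FPKM of 13.3, 2.84 and 1.83 in WT cells and of 9.30, 4.84 and 3.52 in R255K cells, from counts of 1720, 316 and 188 and of 1080, 668 and 491. It was lower in R255K cells at 0 h (0.700, 0.648 to 0.755) and higher at 8 h (1.92, 1.62 to 2.28). Rbm15b had an FPKM of 19.0, 7.90 and 3.04 in WT cells and of 16.9, 11.6 and 9.88 in R255K cells, from counts of 2153, 771 and 273 and of 1719, 1400 and 1210. Its ratio was 0.890 at 0 h (0.834 to 0.948) and 3.25 at 8 h (2.85 to 3.72). The 8 h to 0 h ratio was higher in R255K cells for both, 2.74 times for Rbm15 (2.28 to 3.30) and 3.66 times for Rbm15b (3.16 to 4.23). Rbm15 kept the shorter half-life of the pair in both genotypes, at 2.19 h in WT (2.07 to 2.33) and 4.86 h in R255K cells (4.38 to 5.47), against 3.09 h (2.91 to 3.30) and 8.58 h (7.51 to 10.0) for Rbm15b. Of the 6511 exon bases of Rbm15b, 75 are shared with Vprbp and 14 with Manf, whose reads there cannot be told apart.

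Zc3h13, the zinc finger subunit, had an FPKM of 23.3, 10.2 and 4.28 in WT cells and of 18.6, 12.6 and 9.65 in R255K cells, from counts of 2496, 936 and 364 and of 1794, 1438 and 1117. Its R255K level was lower at 0 h, by a ratio of 0.801 (0.753 to 0.851), and 2.25 times the WT level at 8 h (2.00 to 2.54). At 8 h 18.4% was left in WT (16.4 to 20.5) and 51.8% in R255K cells (48.0 to 55.8).

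Cbll1, the RING finger subunit, fell most steeply of the 7 in both genotypes. Its FPKM was 8.59, 0.733 and 0.398 in WT and 9.22, 2.21 and 1.80 in R255K cells, from counts of 600, 44 and 22 and of 578, 165 and 136. The genotypes were level at 0 h (1.07, 0.956 to 1.21) and stood 4.54-fold apart at 8 h (2.88 to 7.48). The half-life was 1.39 h in WT (1.27 to 1.53) and 2.47 h in R255K cells (2.26 to 2.73), and the WT values at 4 and 8 h rest on the fewest reads of any member. With the GC trend removed Cbll1 was 1.81-fold higher in R255K cells at 0 h and its half-life ratio of 1.78 became 1.31.

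Counted over the 7 genes, all were at least 1.5-fold lower at 8 h than at 0 h in WT cells, where 50.3% of all tested genes were, and all 7 also in R255K cells, where 31.9% were. The level was at least 1.5-fold higher in R255K than in WT cells for 3 of 7 at 4 h (33.9% of all tested genes) and for 6 of 7 at 8 h (46.7%). The count at 8 h was 4 of 7 with TMM factors and 3 of 7 (Wtap, Rbm15b and Cbll1) with median-of-ratios size factors, and at 4 h it was 2 of 7 (Wtap and Cbll1) with either. The shares of all tested genes for these counts were not computed under these scalings, and those above cannot stand in for them. The median log2 ratio of all tested genes at 8 h was 0.056 with TMM factors and −0.11 with median-of-ratios size factors. The 8 h to 0 h ratio was over 1.5 times higher in R255K cells for 6 of 7, all but Mettl14, against 44.2% of all tested genes. Under the 5 other scalings it was 5 to 7 of 7, against 30.5% to 63.0% of all tested genes. The members' median was 2.81 and that of all tested genes 1.33. The half-life ratio was over 1.5 for 6 of 7, all but Mettl3, against 68.8% of the 5542 genes with a decline in both genotypes. The counts at 8 h are thus read against a table in which the median gene itself was 0.49 higher in R255K on the log2 scale. The median log2 difference of the 8 h to 0 h ratio over all tested genes was 0.41, and between −0.081 and 0.93 under the other scalings. Relative to 0.41, the 5 genes that differed most stood between 1.04 and 2.10 above it, Mettl3 0.20 and Mettl14 0.02. The R255K to WT difference of the 8 h to 0 h ratio also moved with GC content. Its median was 2.45 over tested genes with under 42% GC, the class of Mettl14, Wtap and Cbll1. It was 1.59 from 42% to 46% (Rbm15) and 1.35 from 46% to 50% (Mettl3). From 50% to 54% (Zc3h13) and from 54% up (Rbm15b) it was 1.14.

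**Figure D2:**
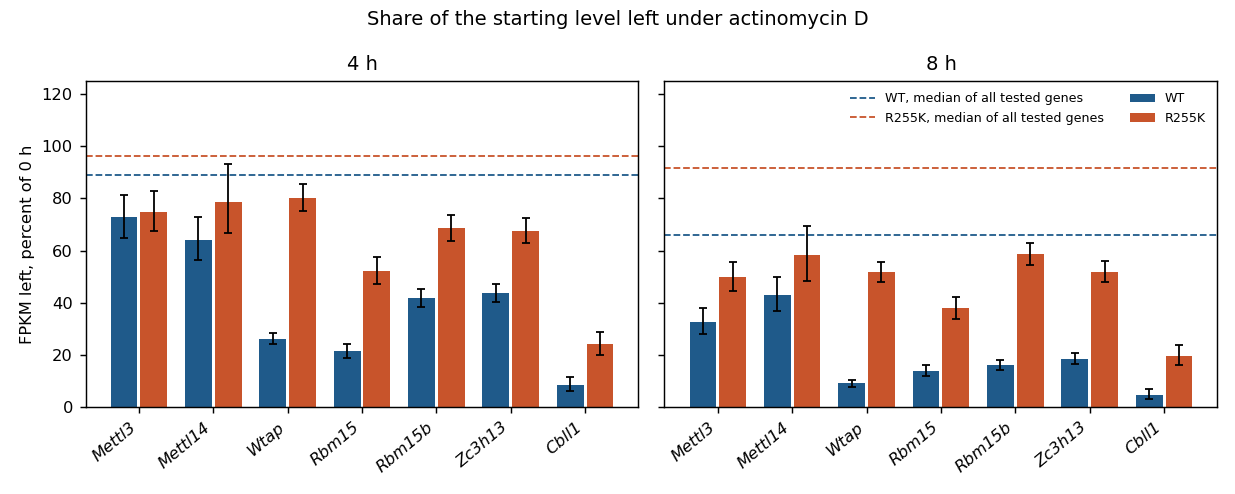
FPKM left at 4 h and 8 h in percent of the 0 h library of the same genotype, for WT (blue) and R255K (orange) cells, with 95% counting intervals and dashed lines at the median of all tested genes. At 8 h every WT bar is at or below 43.0% and lower than its R255K neighbour, and all bars lie below the dashed line of their genotype.

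**Figure D3:**
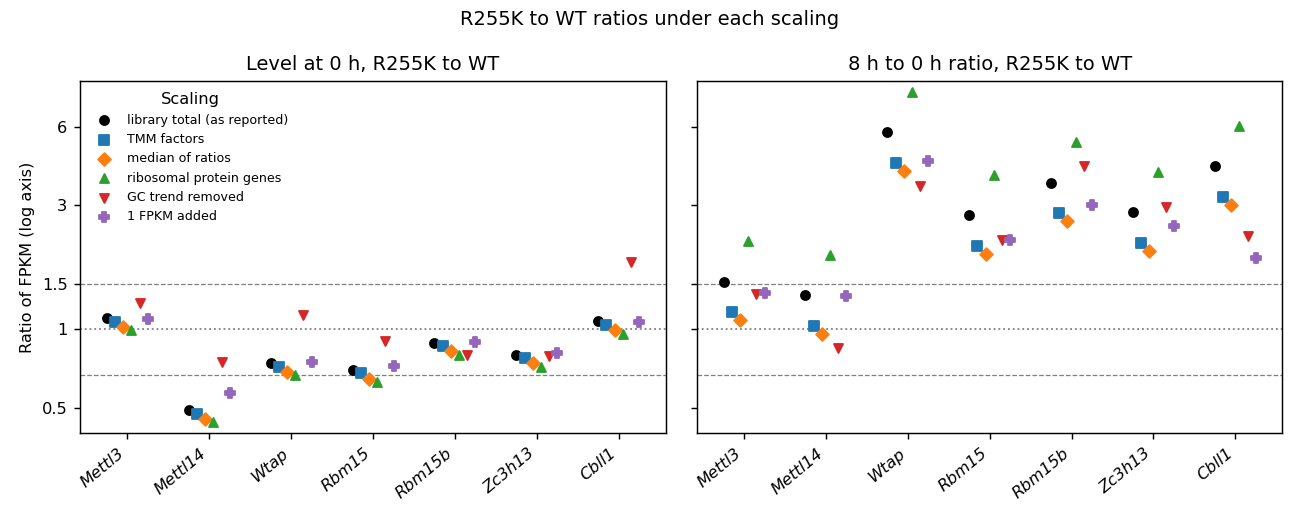
R255K to WT ratio of the level at 0 h (left) and of the 8 h to 0 h ratio (right) on a log axis, for each gene under 6 ways of scaling, with dashed lines at 1.5-fold. Wtap, Rbm15, Rbm15b, Zc3h13 and Cbll1 stay above 1.5 on the right under each of them, while Mettl3 and Mettl14 straddle the line.

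The order of the levels also changed. At 0 h in WT cells Wtap, Zc3h13, Rbm15b and Rbm15 stood at 28.8, 23.3, 19.0 and 13.3 FPKM, each apart from the next beyond counting error, followed by Mettl3 and Cbll1, whose intervals overlapped, and Mettl14. In R255K cells at 0 h the top 3 were in the same order, and Mettl3, Rbm15 and Cbll1 (9.89, 9.30 and 9.22) overlapped with their neighbours. At 8 h in WT cells Rbm15b, Mettl3, Wtap, Mettl14 and Rbm15 ran from 3.04 to 1.83 FPKM with each interval overlapping the next, and only Zc3h13 above and Cbll1 below stood apart from their neighbours.

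The summed FPKM of the 7 genes fell from 107 to 17.3 in WT cells and from 87.9 to 42.3 in R255K cells over 8 h. Within this sum the share of Wtap was 26.9% at 0 h and 15.0% at 8 h in WT cells, against 24.3% and 26.0% in R255K cells. The share of Mettl14 was 4.91% and 13.1% in WT cells, against 2.93% and 3.54% in R255K cells. Expressed as pairs, Wtap to Mettl14 went from 5.47 (5.03 to 5.96) to 1.15 (0.947 to 1.39) in WT cells and from 8.29 (7.33 to 9.39) to 7.36 (6.34 to 8.56) in R255K cells. The proportions of the 7 mRNAs thus changed more over time in WT than in R255K cells for these 2 genes.

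**Figure D4:**
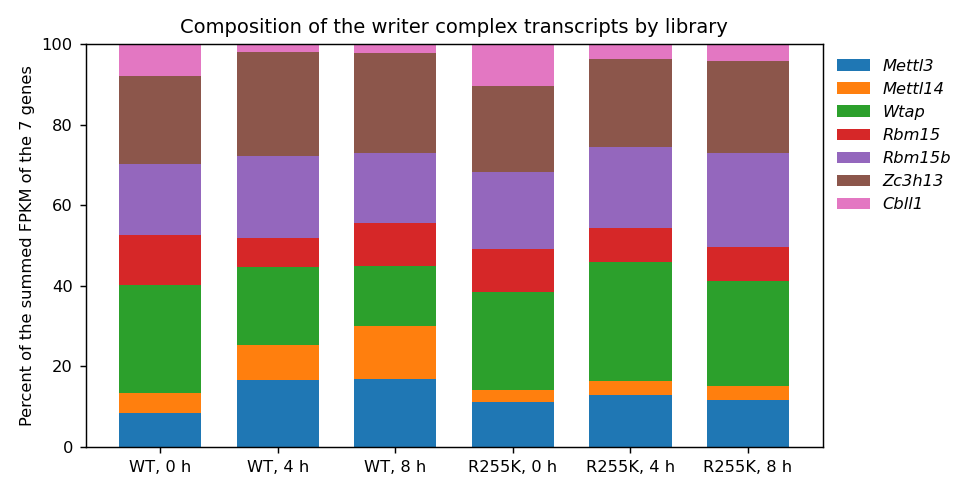
Share of each gene in the summed FPKM of the 7 genes, in percent, for each of the 6 libraries. The Wtap segment shrinks from 26.9% to 15.0% and the Mettl14 segment grows from 4.91% to 13.1% over 8 h in WT cells, and both change by less than 6 percentage points in R255K cells.

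In the MeRIP-seq lists, where a peak is a region with more IP than input reads, 14 of the 13870 WT peaks on exons and 11 of the 8818 R255K peaks on exons lay on the writer genes. WT peaks lay on 6 of the 7 genes (57.4% of all tested genes had one) and R255K peaks on 5 of 7 (43.6%). Mettl3 had none in either list, and no peak lay in an intron of the 7 genes. Of the 14 WT peaks, 9 had their summit in coding sequence, 4 in a 3′ UTR and 1 in a noncoding exon. In R255K cells 10 summits were in coding sequence and 1 was in a 3′ UTR. The median fold enrichment over local background was 8.04 in WT and 9.58 in R255K cells on these genes, and 6.17 and 5.50 over all exonic peaks.

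Of the 14 WT peaks, 5 had no overlapping R255K peak (35.7%, exact binomial interval 12.8 to 64.9), against 47.9% of all exonic WT peaks. They were the single Mettl14 peak (fold enrichment 2.99), the peak at the 5′ end of Wtap (9.71), the 3′ UTR peak of Rbm15 (2.77), and the first and last peaks of Zc3h13 (5.29 and 4.84). Among them were all 3 peaks whose summit lay past the stop codon of the main transcript, at 90 nt in Mettl14, 221 nt in Rbm15 and 14 nt in Zc3h13. The share of lost peaks past the stop codon over all genes was not computed, so no loss particular to these genes can be read from them. The other 3′ UTR peak, on a shorter Wtap transcript (8.36), was kept. Sequence around the GGAC nearest to the summit is printed for those of the 5 that had one within 100 bases, to place the peaks that left the list. The A of these GGAC lay at 33, −39 and −48 bases from the summits, in the order printed. A peak does not resolve which base was methylated.
Mettl14 3′ UTR, chr3:123369251-123369280: caccccaccccagGGACtggcagttgtcac
Zc3h13 first peak, chr14:75321850-75321879: catgatcacgaacGGACttcacagtcacat
Zc3h13 last peak, chr14:75343713-75343742: agatggcaaattaGGACcgtgcagtatcca
The lost Mettl14 peak was weak, with a −log10 q of 8.19, and the Mettl14 level in R255K cells was the lowest of the 7. The part of that level in the loss was not tested. The Wtap peak at chr17:12992511-12993109 had its summit just outside the exons of the count table, in an exon that GENCODE vM21 gives to noncoding transcripts. With at least 50% of the WT peak to be covered, 8 of 14 were lost, and with only the 11 peaks enriched at least 4-fold considered, 3 were. The shares of all exonic WT peaks under these rules were not computed, and 47.9% cannot stand in for them.

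**Figure D5:**
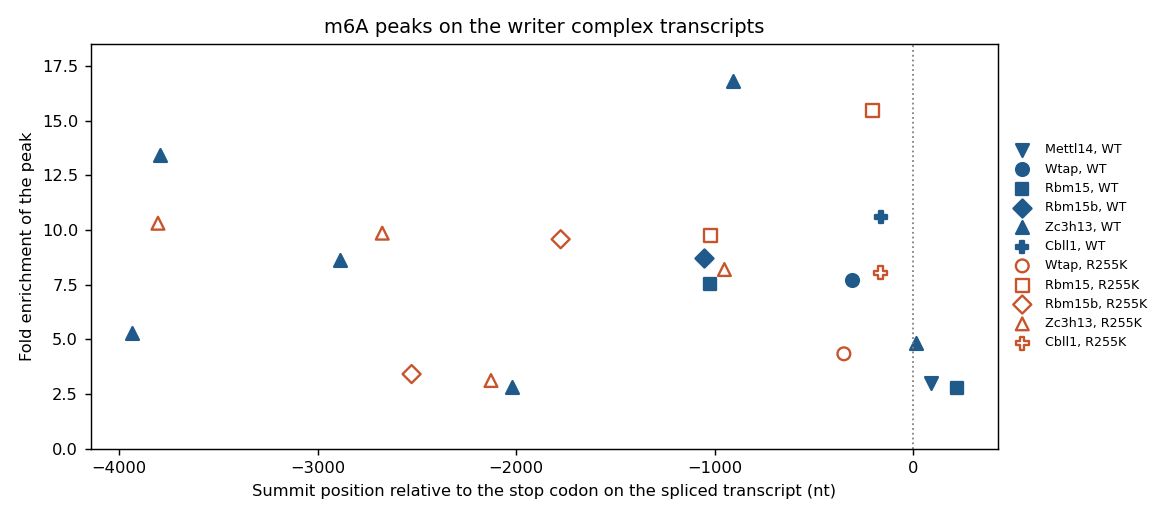
Fold enrichment of each peak against the distance of its summit from the stop codon on the main spliced transcript (nt, negative is upstream), for WT (filled) and R255K (open), with 1 marker shape per gene. The 3 summits past the stop codon are WT only, and 3 Wtap summits off the main transcript are not drawn. The share of such WT peaks without an R255K peak over all genes was not computed.

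The 9 kept peaks were stronger calls, with a median −log10 q of 142 against 25.7 for the 5 lost ones (54.4 and 12.4 over all exonic WT peaks). In R255K cells 4 of the 9 had a lower fold enrichment than in WT cells, against 70.6% of all kept exonic peaks, taking the highest where several overlapped. The strongest WT peak of Zc3h13, in exon 15, had 16.8 in WT and 8.19 in R255K cells. For the next, in exon 10, the values were 13.4 and 10.3. The Cbll1 peak in the last exon, 160 nt before the stop codon, was at 10.6 and 8.04. The antisense gene Gm29542 shares 704 exon bases with Cbll1 and had 0 counts in all 6 libraries. The Wtap peak in the last exon was at 7.72 and 4.34.

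Other peaks on the same transcripts had the higher fold enrichment in R255K cells. The peak in the 3′ UTR of a shorter Wtap transcript was at 8.36 in WT and 17.6 in R255K cells, the latter above 96.6% of all exonic R255K peaks. Wtap thus held a peak with a lower and a peak with a higher value. The GGAC nearest to the summit of this 3′ UTR peak was the same in both genotypes.
Wtap internal 3′ UTR, chr17:12974763-12974792: ccaataagactgtGGACttcatgattgttg
On Rbm15 a WT peak 3104 bp wide with a fold enrichment of 7.52 was matched by a pair of R255K peaks at 9.76 and 15.4. On Rbm15b a WT peak of 2863 bp at 8.70 was matched by a pair at 9.58 and 3.42. The smaller Zc3h13 peaks in exons 12 and 14 were at 8.64 and 2.84 in WT and at 9.85 and 3.12 in R255K cells. With 1 list per genotype and an unknown depth behind it, none of these differences has an error. GGAC was on the transcript strand within 100 bases of 11 of 13 WT summits on exons of the members (79.4% of 12998 over all genes) and of 9 of 11 R255K summits (82.9% of 8150). On the opposite strand it was found at 4 of 13 and 4 of 11 (46.1% and 47.5%). No motif other than GGAC was compared.

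Set beside each other, the 5 genes with a WT peak of at least 4 were the 5 whose transcripts differed most in the time course. Their WT half-lives were 1.39 to 3.31 h and their 8 h to 0 h ratios 2.74 to 5.71 times higher in R255K cells. Mettl3, without a peak, and Mettl14, with a single peak of 2.99, had WT half-lives of 6.32 h and 6.41 h and differences of 1.52 and 1.35. Over all tested genes the median difference was 0.919 for the 5062 genes without an exonic WT peak, 1.12 for the 1227 with a strongest peak under 4 and 2.13 for the 5580 with one of at least 4. The median WT half-life, where both genotypes declined, was 6.72, 5.10 and 2.79 h in these classes. Like the class medians, the 5 genes with a WT peak of at least 4 stood apart from Mettl3 and Mettl14, whose own order was the opposite of that of the classes without a peak and with a weak one. With 7 genes there is no test of this.

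The genes whose profiles over the 6 libraries were nearest to each member, by distance of centred log2 FPKM, were Slc25a14 and Tchp for Mettl3, Dapp1 and Mllt6 for Mettl14, Utp3 and Nr3c1 for Wtap, 5330438D12Rik and Asb1 for Rbm15, Tmem184b and Mid1ip1 for Rbm15b, Prpf18 and Trak2 for Zc3h13, and S1pr2 and Hs6st1 for Cbll1. Pearson's r was between 0.984 and 0.999 over 6 libraries that all genes share. These genes were picked for closeness among all tested genes, so high values were set in advance. Tmem184b was the closest, with an FPKM of 17.7, 7.06 and 2.72 in WT and of 15.2, 10.3 and 9.27 in R255K cells beside the Rbm15b values. No member was among the nearest of another.

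Of 24 other genes of the m6A machinery, 4 were at least 1.5-fold lower in R255K cells at 0 h (Ythdf3 at 0.430, Ythdc2 at 0.582, Igf2bp3 at 0.250 and Fmr1 at 0.329) and 4 higher (Mettl16 at 1.58, Alkbh5 at 1.60, Igf2bp1 at 1.61 and Ahcy at 1.66). These are 16.7% each, beside 19.3% and 20.6% of all tested genes. The 8 h to 0 h ratio was over 1.5 times higher in R255K cells for 12 of 24 (50%), beside 44.2% of all tested genes. The median R255K to WT quotient of this ratio was 1.49, against 1.33 over all tested genes. The quotient was below 1 for 9 of 24, and the share of all tested genes below 1 was not computed. The remaining stable subunit of the complex, Virma, had an R255K to WT level ratio of 1.05 at 0 h and 2.28 at 8 h. Its 8 h to 0 h ratio was 2.18 times higher in R255K cells. The demethylases went apart in the 8 h to 0 h ratio of R255K to WT cells, with Alkbh5 at 5.17 and Fto at 0.920. The YTH domain readers Ythdf1, Ythdf2, Ythdf3 and Ythdc2 were between 5.16 and 5.84 and Ythdc1 was at 1.71. The readers Hnrnpc, Hnrnpa2b1, Igf2bp2 and Igf2bp3 were at 0.687, 0.806, 0.857 and 0.933. The remaining readers Elavl1, Prrc2a, Igf2bp1 and Fmr1 were above 1, at 1.24, 1.60, 1.65 and 4.86. Prmt1, an arginine methyltransferase, had 0.633, and Ahcy, which clears the by-product of methylation, 0.564.

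Of 10 genes that mark embryonic stem cells none was at 0 in any library, and their summed FPKM at 0, 4 and 8 h was 2850, 2502 and 2913 in WT libraries and lower, at 2161, 1881 and 1930, in R255K libraries. At 0 h 2 of the 10 were higher in R255K cells, and Esrrb had 173 and 80.4 FPKM and Klf4 79.4 and 32.4 in WT and R255K cells. The summed FPKM of 4 fibroblast genes was between 1.64 and 2.197 in WT and between 5.94 and 7.11 in R255K libraries, with Col1a1 at 9 and 150 counts at 0 h. Zscan4c and Zscan4d, which mark 2-cell-like cells, were at 0 in WT cells at 0 and 8 h and had 23 and 47 counts in R255K cells at 0 h. The summed FPKM of 5 germ layer genes at 0 h was 16.6 in WT and 5.88 in R255K cells, of which Sox1 made up 13.4 and 1.76. Without Sox1 the sums were 3.20 and 4.12, with Sox17 and T higher in R255K cells and Gata6 and Pax6 lower. Cytoplasmic ribosomal protein genes took between 4.28% and 7.11% of the counts, rising with time in both genotypes. The part of these differences in the values above was not tested, and fewer cells of a type cannot be told apart from less RNA per cell.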

How the data were processed

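Processed files of 14 libraries of mESCs were used. The authors removed rRNA reads with Bowtie2 2.2.6, aligned with HISAT2 to mm10, and filtered with Picard 2.16.0 and SAMtools 0.1.09. The deposited counts are raw read counts per gene. The counting tool and annotation are not given in the sources used here. Peaks were called by the authors with MACS2, and the deposited peak lists give the fold enrichment as a ratio over local background and a −log10 q-value. Behind each list stand 2 IP and 2 input libraries, and how they were combined is not given in the sources used here.

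FPKM was computed from the summed counts of each library and the exon length in the tables, with counts under 3 set to 3. The 11869 genes whose FPKM at 0 h averaged 1 or more across genotypes formed the background, and 1.5-fold was the threshold. Decay rates from 0 to 4 h and from 0 to 8 h, each the log ratio over the time, were averaged, and half-lives follow from that rate. Ratios of 2 counts have exact conditional (Clopper-Pearson) intervals, and half-lives and ratios of ratios have intervals from the Poisson variance of log counts. The estimates were tested on simulated Poisson counts with equal 0 h levels in both genotypes and known library sizes. That simulation held no GC trend and could not test the choice of scaling. Peaks overlapping by at least 1 bp were taken as shared. Transcript positions came from GENCODE vM21, and sequences came from the RefSeq GRCm38.p6 genome, of the same build as mm10. Exons of 0 genes reached past a chromosome end. All 7 members, the other machinery genes past 1.5-fold, and the 2 nearest profiles of each member were named by rule. Other machinery genes named by their 8 h to 0 h ratio, and Sox1, Esrrb and Klf4, were chosen after their values were seen. Members and lists were chosen with earlier results of these data known. Alternatives were edgeR 4.0.16 TMM factors, DESeq2 1.42.0 size factors, 83 ribosomal protein genes, a GC trend (lowess span 0.3), a pseudocount of 1 FPKM, other times, peak thresholds and lengths. Python 3.11.15, pandas 2.3.3 and scipy 1.17.1 were used.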

Additional observations from a re-analysis of the deposited data

Results flagged for a closer look

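In 3 of 24 other genes of the m6A machinery both later libraries lay below the 0 h library in WT cells and both lay above it in R255K cells, which no writer gene of the 7 did. The share of all tested genes with this pattern was not computed, so it is not known to be particular to these genes. The median FPKM left at 8 h over all tested genes was 65.9% in WT and 91.8% in R255K cells. For Virma, a scaffold subunit of the complex, the log2 change from 0 h was −0.24 at 4 h and −0.70 at 8 h in WT, against 0.54 and 0.42 in R255K. For Mettl16, a separate m6A methyltransferase, it was −0.38 and −1.13 in WT, against 0.17 and 0.072 in R255K. For Fmr1, an RNA-binding protein, it was −0.086 and −1.53 in WT, against 1.12 and 0.75 in R255K. The opposite directions were seen under 4 of 5 other scalings for Virma, 3 of 5 for Mettl16 and 2 of 5 for Fmr1. With 1 library per genotype and time, the differences between genotypes were not tested.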

How the results depend on the processing

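No paired analysis was possible because each genotype and time had 1 library and each genotype 1 peak list, so no replicate could be left out either. The number of members at least 1.5-fold lower in R255K cells at 0 h was 1 as reported, 2 with median-of-ratios size factors (Mettl14 and Rbm15), 3 with scaling to ribosomal protein genes (also Wtap) and 0 with the GC trend removed, where 1 member (Cbll1) was higher. The number with an 8 h to 0 h ratio over 1.5 times higher in R255K cells was 5 to 7 under every alternative, and the number with a half-life ratio over 1.5 was 4 to 7. For the counts at 0 h and of the half-life ratio, the shares of all tested genes under the other scalings were not computed. The half-life ratio of Mettl14 reversed to 0.596 with the GC trend removed. The cause was not tested. Lost exonic WT peaks were 8 of 14 with 50% of the WT peak to be covered and 3 of 11 with a WT fold enrichment of at least 4. For these counts too, the shares of all exonic WT peaks under the same rules were not computed. Without length, the Mettl3 to Mettl14 ratio was 1.20, 1.36 and 0.914 in WT and 2.72, 2.58 and 2.33 in R255K cells at 0, 4 and 8 h. With the longest annotated transcripts it was 4.01, 4.54 and 3.05 in WT and 9.05, 8.60 and 7.75 in R255K cells. Of 183 values of single members or the table under an alternative, 90 were counted as unchanged. Another 92 lay outside the counting interval without reversing a difference past 1.5-fold, and 1 reversed. Unchanged meant within the counting interval or, for the 1 value of the whole table, within 1.5-fold of the reported share. Fold changes understate low genes with a pseudocount of 1 FPKM. Depth limits Cbll1 most, with 22 counts at 8 h in WT cells.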
